A study of Mus musculus with 6 samples.

Results

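The unfolded protein response (UPR) of the liver was examined through 10 genes. They encode sensors of misfolded protein in the endoplasmic reticulum (ER), transcription factors of the response, or the proteases that free its membrane-bound factors. They were taken by symbol from the 54232 genes counted in each library: the kinase sensor genes Ern1 and Eif2ak3, the transcription factor gene Xbp1, those of the membrane-bound factors Atf6, Atf6b, Creb3, Creb3l2 and Creb3l3, and the protease genes Mbtps1 and Mbtps2. All 10 were matched and all 10 passed the filter on low counts, among 13986 genes tested. RNA was sequenced from whole liver of chow-fed male C57BL/6 mice aged 8 to 10 weeks, in 2 groups of 3 libraries. DKO mice lacked XBP1 in the liver only and were also null for Nr1h4, the gene of the bile acid receptor FXR (Fxr-/-Xbp1LKO). SKO mice were likewise FXR-null and carried floxed Xbp1 alleles without the liver deletion (Fxr-/-Xbp1fl/fl), so both groups lack FXR and they differ in liver XBP1. The labels and design text name neither the Cre driver nor the deleted exons. They do not say how many animals a library holds, and the titles of 4 of the 6 libraries carry a pair of numbers with no stated meaning. All p-values therefore reflect variation among these 6 libraries, some of which may be technical.

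In the UPR, the kinase and endonuclease IRE1-alpha (Ern1) removes a short intron from Xbp1 mRNA in the cytoplasm, and the shifted reading frame then encodes the active factor XBP1s. PERK (Eif2ak3) phosphorylates the translation factor eIF2-alpha and so slows protein synthesis. ATF6 and its relative ATF6B, like the CREB3 family, are made as membrane proteins that travel to the Golgi, where the site-1 protease (Mbtps1) and the site-2 protease (Mbtps2) cut them in turn and free a DNA-binding fragment. Secretory cells such as hepatocytes depend on these routes to match folding capacity to secretion. Transcript counts measure none of the splicing, phosphorylation or cleavage steps.

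The sequence below is the stretch of Xbp1 coding sequence on which IRE1-alpha acts, shown because it links the first sensor to the gene deleted here. Capitals mark the 26 bases removed by IRE1-alpha, which lie between cuts in the middle of each of 2 CNGCAG elements in exon 4 of 5 of the transcript Xbp1-201 (GENCODE M21, plus strand of mm10, chr11:5524261-5524322).
Xbp1 exon 4: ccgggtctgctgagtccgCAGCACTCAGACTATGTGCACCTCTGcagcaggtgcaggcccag
Pairs of CNGCAG elements at this spacing were searched over whole transcripts. Such a pair was present at some position in 3 of the 3 coding Xbp1 transcripts and in no other of the 10 genes. This count does not separate the exon 4 pair from other pairs. By letters alone, 1.68% of the 21877 protein-coding genes hold such a pair in a coding transcript, and Xbp1-201 itself holds another one in exon 1. Counts per gene do not separate the spliced from the unspliced form.

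Total counts ranged from 16966422 to 21107674 per library. DKO replicate 1 lay at 45.7 on the first principal component, DKO replicates 2 and 3 at 19.8 and 27.5, and the SKO libraries between -36.3 and -27.6. Hepatocyte markers were present in all libraries, which fits the tissue label, and their summed level was 50120 to 62230 CPM in DKO and 77660 to 105000 CPM in SKO, with 4 of 8 called lower (Alb, Apoa1, Ttr and Serpina1a) and Hnf4a, Asgr1, Cps1 and Tat not called. CPM here is the normalised read count, in which each count is divided by the library total scaled by the trimmed mean of M-values (TMM) and set to the usual CPM base. All counts of called markers in this paragraph stand against 10.3% of all tested genes called higher and 9.70% lower. Summed stellate cell and fibroblast markers were 639.8 to 942 CPM in DKO and 368 to 432 CPM in SKO (7 of 11 called higher). Macrophage markers summed to 665 to 1027 CPM in DKO and 498 to 634 CPM in SKO (3 of 8 higher), cholangiocyte markers to 139.8 to 221 CPM in DKO and 79.8 to 91.2 CPM in SKO (3 of 7 higher), and endothelial markers to 424 to 455 CPM in DKO and 444 to 462 CPM in SKO (1 of 8 higher). B lymphocyte and plasma cell markers, a lineage rich in Xbp1, summed to 249 to 303 CPM in DKO and 180.0 to 185 CPM in SKO (2 of 6 tested, on a list of 8, higher), nearly all of it from Sdc1, which hepatocytes also make. T and NK cell markers summed to 5.17 to 7.09 CPM in DKO and 2.96 to 4.67 CPM in SKO (0 of 6 tested, on a list of 7, called), and no marker on these lists was at 0 in all libraries. In whole liver, fewer cells of a type and less RNA per cell cannot be told apart, and the part of these shifts in the results below was not tested.

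Of the 10 genes 3 fell in DKO, all of them transcription factor genes: Xbp1 itself was 3.20-fold lower, and Creb3 and Creb3l3 were 1.26-fold and 1.25-fold lower. No sensor gene and no protease gene passed the test, and none of the 10 rose. By edgeR's quasi-likelihood test at a Benjamini-Hochberg adjusted p under 0.05, 0 were called higher and 3 lower, where 10.3% and 9.70% of all tested genes were called (20.0% in either direction). Normalised CPM of the 2 groups did not overlap for 6 of the 10 genes, 2 with DKO above and 4 with DKO below, where this held for 39.6% of all genes tested (20.2% above and 19.4% below). The median log2 fold change of the 10, DKO over SKO, was -0.24, against 0.006 for all genes tested. Xbp1, the gene deleted in DKO, is included in the lower calls, in the genes without overlap and in this median. Its part in them was set by the design.

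**Figure D1:**
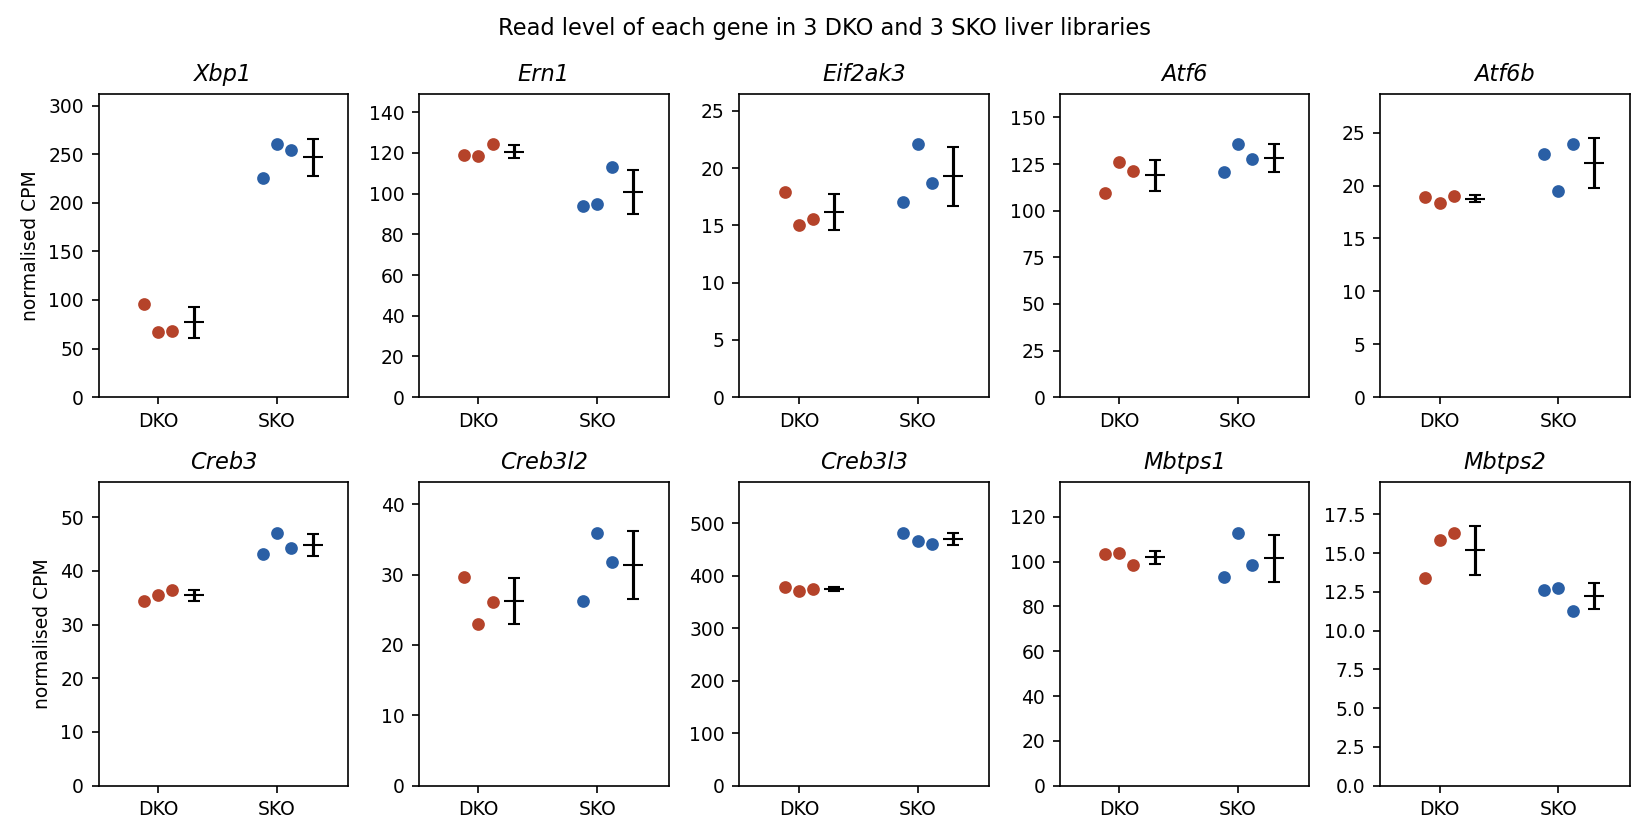
Normalised CPM (y axis, from 0, a scale per gene) of each of the 10 genes in 3 DKO (red) and 3 SKO (blue) libraries, with the group mean and SD in black. Xbp1, Creb3, Creb3l3 and Atf6b lie lower in every DKO library than in any SKO library, and Ern1 and Mbtps2 lie higher.

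Xbp1 (ENSMUSG00000020484, chr11:5520659-5525893, plus strand) had 95.7, 67.0 and 68.2 CPM in DKO libraries and 225, 260.3 and 254 CPM in SKO libraries. The DKO libraries all lay far below the SKO ones, and DKO replicate 1 was the highest of the 3. The mean was 77.0 ± 16.2 CPM in DKO and 247 ± 18.9 CPM in SKO (SD, n = 3 each), 3.20-fold lower in DKO (log2 fold change -1.68 ± 0.14, SE; 95% interval -1.997 to -1.36; edgeR adjusted p = 0.000146). Between 1316 and 2279 reads per DKO library were still assigned to the gene. Which exons they cover, and which cells they came from, cannot be read from counts per gene. The other targeted gene, Nr1h4, was counted in both groups at 97.2 ± 3.36 CPM in DKO and 98.5 ± 5.93 CPM in SKO (log2 fold change -0.02 ± 0.07, edgeR adjusted p = 0.891), and without knowing the deleted exons this value does not check the FXR genotype.

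Ern1, which encodes IRE1-alpha, was the sensor gene that came nearest to a call. Its levels were 119, 119 and 124 CPM in DKO libraries and 94.1, 95.1 and 113 CPM in SKO libraries. The groups did not overlap, and SKO replicate 3 lay closest to the DKO libraries. A log2 fold change of 0.26 ± 0.09 missed the threshold (95% interval 0.07 to 0.45, not adjusted; edgeR adjusted p = 0.0573). Leaving out SKO replicate 3 gave 0.35 and a call (edgeR adjusted p = 0.0252), and so did testing with no filter on low counts (0.26, edgeR adjusted p = 0.0369). Within each library, Ern1 reads per Xbp1 read were 1.24, 1.77 and 1.82 in DKO and 0.418, 0.365 and 0.445 in SKO. This ratio does not depend on library scaling, but its denominator is the deleted gene, whose log2 fold change of -1.68 makes up most of the difference, so it says little about Ern1. It differed by 1.96 on the log2 scale with no overlap (exact two-sided permutation test, p = 0.1, the smallest 3 against 3 libraries can give; 0.5 after adjustment over 5 ratios).

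Eif2ak3, the PERK gene, was counted at 17.9, 14.99 and 15.6 CPM in DKO libraries and at 17.03, 22.1 and 18.7 CPM in SKO libraries. DKO replicate 1 lay above SKO replicate 1, so the groups overlapped. Its log2 fold change was -0.25 ± 0.12 and was not called (edgeR adjusted p = 0.155), and its 95% interval of -0.51 to 0.01 takes in no change as well as a fall to 0.70 of the SKO level.

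Atf6, the classical membrane-bound sensor, stood at 109.6, 126 and 121 CPM in DKO libraries and at 121, 136 and 128 CPM in SKO libraries. The groups overlapped, and the log2 fold change of -0.11 ± 0.08 was not called (edgeR adjusted p = 0.385; 95% interval -0.29 to 0.07). Its relative Atf6b, whose product is known mostly as a weaker activator than ATF6, had 18.9, 18.4 and 19.0 CPM in DKO libraries and 22.9, 19.5 and 23.9 CPM in SKO libraries. The DKO libraries lay just below the lowest SKO library, replicate 2. A log2 fold change of -0.23 ± 0.10 was not called (edgeR adjusted p = 0.115; 95% interval -0.45 to -0.02, not adjusted). Reads of Atf6 per read of Atf6b were 5.79, 6.86 and 6.38 in DKO libraries and 5.27, 6.97 and 5.35 in SKO libraries, overlapping between the groups (exact two-sided permutation test, p = 0.5).

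Creb3 and Creb3l3 fell together and by nearly the same amount, while Creb3l2 was not called. Creb3 (ENSMUSG00000028466, chr4:43562332-43567060, plus strand) encodes LUMAN, a broadly expressed factor linked to ER and Golgi stress. It had 34.5, 35.4 and 36.4 CPM in DKO libraries and 43.2, 47.2 and 44.2 CPM in SKO libraries. The 2 groups were well apart, with little spread inside either one. The log2 fold change was -0.34 ± 0.07, 1.26-fold lower in DKO (95% interval -0.50 to -0.18; edgeR adjusted p = 0.00941), and the call held in all 6 fits without 1 library (edgeR adjusted p up to 0.0473). Of its 2372 exon bases, 360 also lie in exons of Tln1 and 133 in exons of Gba2, both on the opposite strand, and the sources used here do not say whether counting used the strand.

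Creb3l3 (ENSMUSG00000035041, chr10:81084324-81098874, minus strand) encodes CREBH, a liver- and gut-enriched factor of lipid metabolism and the acute phase response. It had 378, 371 and 375 CPM in DKO libraries and 482, 467 and 459.8 CPM in SKO libraries. No DKO library came near the SKO range, and the 3 DKO values were almost equal. The log2 fold change was -0.33 ± 0.08, 1.25-fold lower in DKO (95% interval -0.51 to -0.15; edgeR adjusted p = 0.0195). It missed the threshold when SKO replicate 2 (edgeR adjusted p = 0.0728) or DKO replicate 3 (0.0678) was left out, at log2 fold changes of -0.34 and -0.33. Reads of Creb3l3 per read of Creb3 were 10.96, 10.5 and 10.3 in DKO libraries and 11.2, 9.90 and 10.4 in SKO libraries. The ratio differed by 0.01 on the log2 scale, less than its pooled SD of 0.07 (exact two-sided permutation test, p = 0.9).

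Creb3l2, which encodes BBF2H7, a factor known for collagen export in cartilage, was counted at 29.6, 23.0 and 26.1 CPM in DKO libraries and at 26.3, 36.0 and 31.8 CPM in SKO libraries. The groups overlapped, and its log2 fold change of -0.26 ± 0.13 was not called (edgeR adjusted p = 0.192; 95% interval -0.54 to 0.03). A fall as large as that of Creb3l3 therefore lies inside its interval, and the within-library ratio of Creb3l3 to Creb3l2 overlapped between the groups, at 12.8, 16.1 and 14.3 in DKO and 18.3, 12.98 and 14.5 in SKO (exact two-sided permutation test, p = 0.6).

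Neither protease gene was called. Mbtps1, the site-1 protease gene, had 104, 104 and 98.5 CPM in DKO libraries and 92.9, 113 and 98.4 CPM in SKO libraries. The DKO values lay inside the SKO range, and the log2 fold change of 0.01 ± 0.08 (edgeR adjusted p = 0.957) had a 95% interval from -0.18 to 0.19, that is from 0.88 to 1.14 times the SKO level. Mbtps2, the X-linked gene of the site-2 protease, had 13.4, 15.9 and 16.3 CPM in DKO libraries and 12.6, 12.8 and 11.3 CPM in SKO libraries. All 3 DKO libraries lay above the SKO ones, DKO replicate 1 only slightly so. Its log2 fold change of 0.31 ± 0.11 was not called (95% interval 0.07 to 0.56, not adjusted; edgeR adjusted p = 0.0737), and without DKO replicate 1 it was 0.40 and called (edgeR adjusted p = 0.0338). Of its 10105 merged exon bases, 2867 are also annotated to Yy2, which was listed at 0 in all 6 libraries. Mbtps1 reads per Mbtps2 read were 7.73, 6.55 and 6.03 in DKO and 7.35, 8.84 and 8.74 in SKO (exact two-sided permutation test, p = 0.2; 0.5 after adjustment over 5 ratios).

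**Figure D2:**
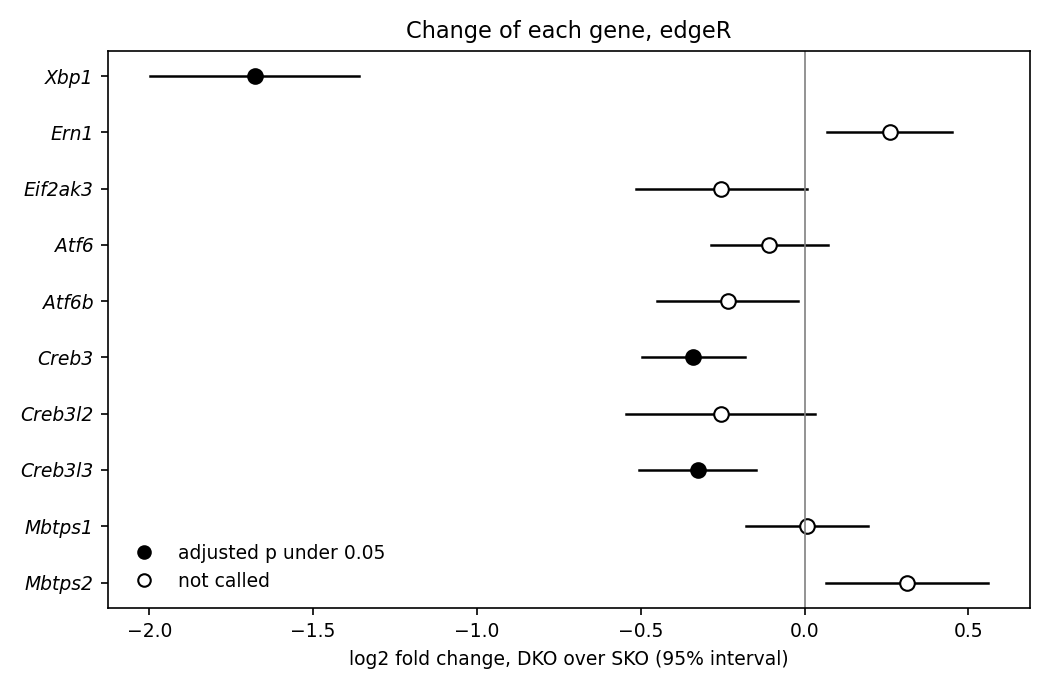
Log2 fold change of each gene, DKO over SKO (x axis), from edgeR with its 95% interval, filled where the adjusted p was under 0.05. Xbp1 at -1.68 stands far left of the others, which lie between -0.34 (Creb3) and 0.31 (Mbtps2), and Creb3 and Creb3l3 are the other filled points.

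These small changes rest on the scaling of the libraries. Without TMM factors the median log2 fold change of all tested genes moved to 0.23, and the log2 fold changes of Creb3 and Creb3l3 became -0.12 and -0.11, no longer called (edgeR adjusted p = 0.211 and 0.314). Relative to that median they were -0.35 and -0.33, as with TMM, because a change of scaling shifts all genes nearly alike. Under the same scaling Ern1 and Mbtps2 were called higher (log2 0.48 and 0.53, edgeR adjusted p = 0.00646 and 0.00593), and relative to the median they stood at 0.25 and 0.30. With upper-quartile factors, which moved the median to 0.07, the 3 lower calls were joined by Ern1 and Mbtps2 as higher (log2 0.32 and 0.37, edgeR adjusted p = 0.0244 and 0.0374). The log2 fold change of Atf6 turned to 0.11 with total counts and was not called in any setting.

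**Figure D3:**
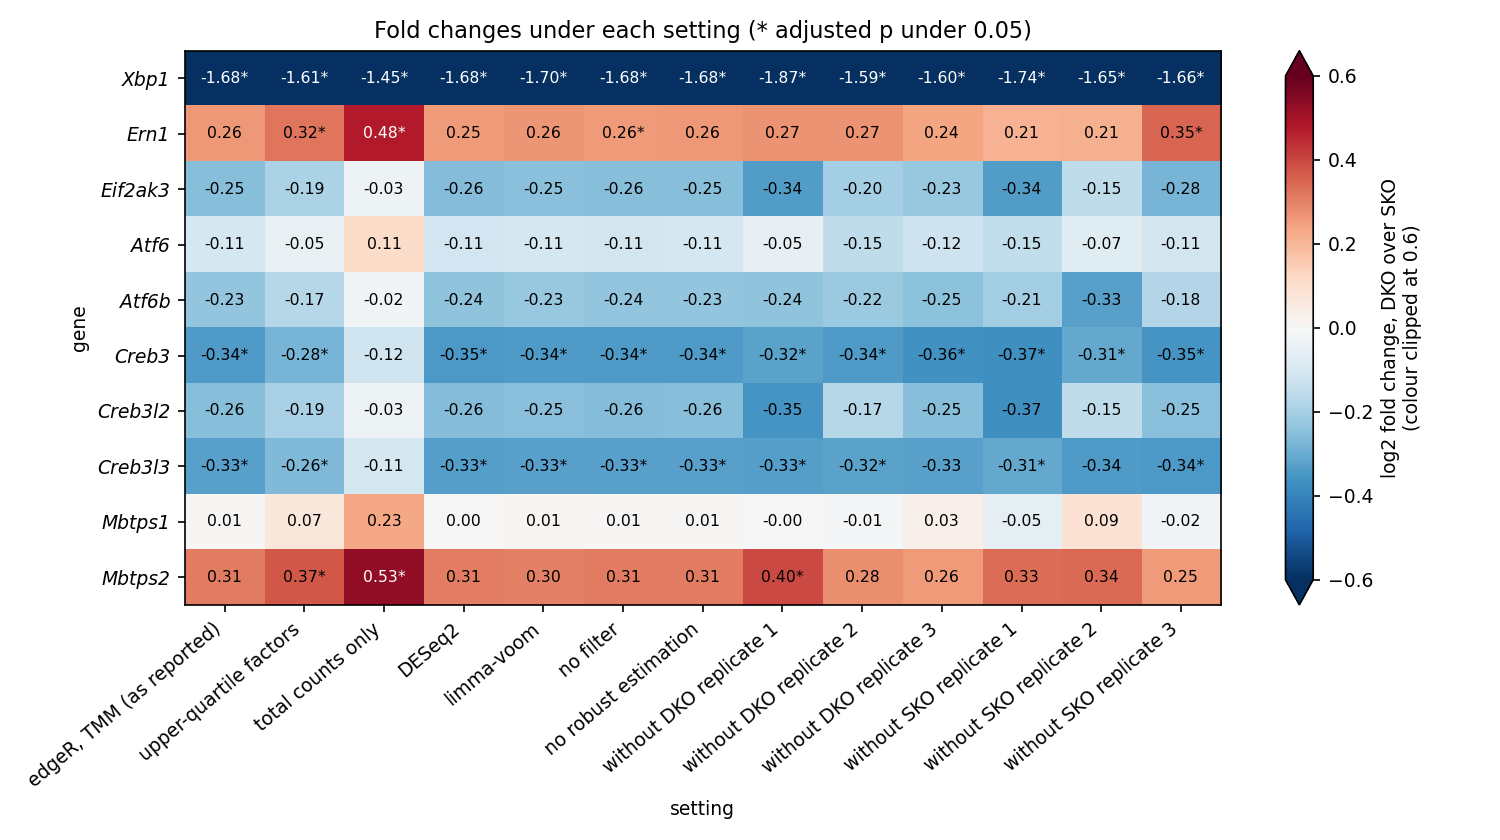
Log2 fold change (colour and printed value) of each gene (rows) under TMM scaling and under each of 12 other settings (columns), with an asterisk where the adjusted p was under 0.05. Xbp1 carries an asterisk in every column, Creb3 in all but the column of total counts, and Creb3l3 in all but 3.

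Per exon length, Creb3l3 was the most abundant of the 10 transcripts in both groups. Levels are given here as normalised CPM per kilobase of merged exons (CPM per kb), in which a gene with long or many alternative exons reads low. Creb3l3 averaged 124 ± 1.09 CPM per kb in DKO and 156 ± 3.82 CPM per kb in SKO. Xbp1 came second in both groups, at 23.7 ± 4.99 CPM per kb in DKO and 75.9 ± 5.82 CPM per kb in SKO, and its lowest DKO library, at 20.6 CPM per kb, still lay above every DKO library of the 8 genes other than Creb3l3. In SKO, Creb3 (18.9 CPM per kb) was followed by Atf6 (13.9) and Ern1 (12.3), whose libraries overlapped, and then by Mbtps1 (9.62) and Atf6b (8.02), which did not overlap. In DKO, Creb3 (14.9 CPM per kb) and Ern1 (14.8) overlapped and lay above Atf6 (12.9), Mbtps1 (9.67) and Atf6b (6.81). Creb3l2 and Eif2ak3 were low in both groups, at 3.60 and 2.68 CPM per kb in DKO, without overlap, and 4.30 and 3.20 CPM per kb in SKO, with overlap. Mbtps2 was the lowest at 1.504 CPM per kb in DKO and 1.21 CPM per kb in SKO. Ern1 thus ranked above Atf6 in DKO and below it in SKO, where the libraries of the 2 genes overlapped.

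**Figure D4:**
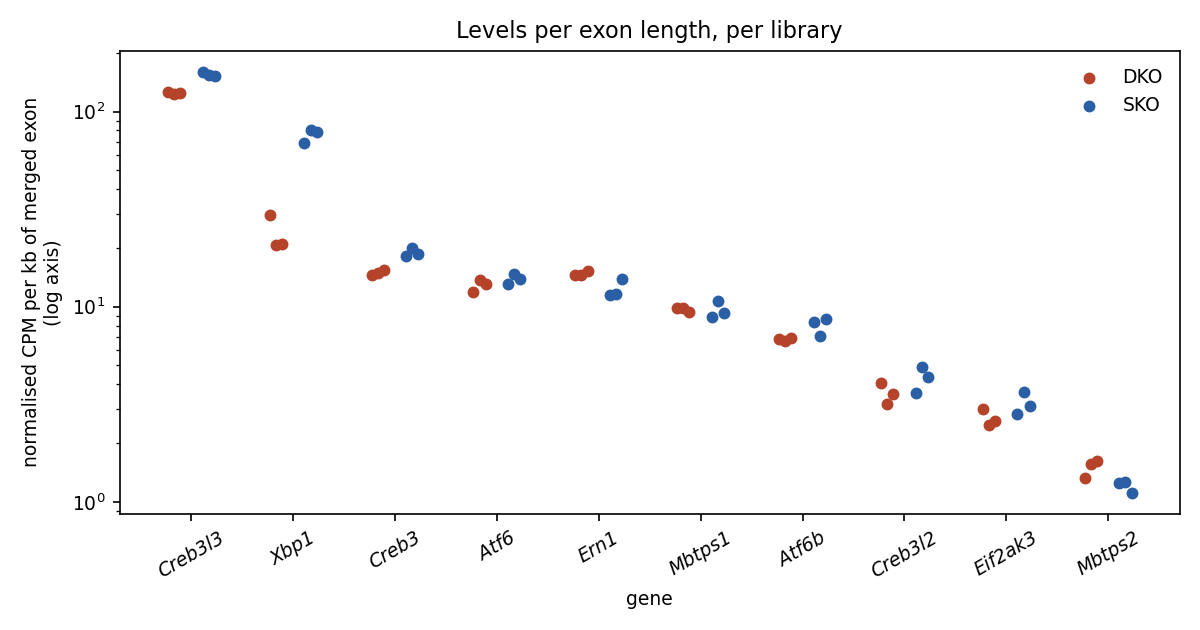
Level of each gene per library in normalised CPM per kb of merged exon (log y axis), DKO in red and SKO in blue, genes ordered by their SKO mean. Creb3l3 lies near 124 in DKO and 156 in SKO, and Mbtps2 at 1.504 and 1.21.

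Relatives of the 10 genes outside the set were low. Creb3l1, which encodes OASIS, a factor of collagen-secreting cells, had 98, 40 and 31 reads in DKO libraries and 12, 23 and 14 in SKO libraries. It was 2.56 ± 1.36 CPM in DKO and 0.937 ± 0.281 CPM in SKO (log2 1.45 ± 0.41, edgeR adjusted p = 0.0343), with DKO replicate 1 far above the other libraries. Leaving out DKO replicate 1 (log2 0.91, edgeR adjusted p = 0.0798) or any 1 SKO library (0.0583 to 0.109) ended the call, as did limma-voom (0.0589), and it moved beside the stellate and fibroblast markers given above, whose part in it was not tested. Creb3l4 was at 0.636 ± 0.139 CPM in DKO and 0.366 ± 0.0736 CPM in SKO and was not called (edgeR adjusted p = 0.178). Ern2, the gene of IRE1-beta, known from gut epithelium, had 1 read in DKO replicate 1, 3 reads in SKO replicate 2 and none elsewhere.

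Genes that act with each sensor were counted from lists chosen with earlier results of these data known, and the counts stand against 20.0% of all tested genes called, 10.3% higher and 9.70% lower. Among 17 partners and clients of IRE1-alpha and genes of Xbp1 mRNA ligation, 4 fell and 1 rose (median log2 -0.14). Dnajb9, an ER co-chaperone that represses IRE1-alpha, was 30.1 ± 1.34 CPM in DKO and 56.2 ± 3.38 CPM in SKO (log2 -0.90 ± 0.08), and Pdia6, a disulfide isomerase that limits IRE1-alpha signalling, was 197 ± 8.79 CPM in DKO and 284 ± 14.04 CPM in SKO (log2 -0.53 ± 0.08). Bax, a pro-apoptotic gene whose product binds IRE1-alpha, was 27.0 ± 3.47 CPM in DKO and 15.5 ± 2.04 CPM in SKO (log2 0.80 ± 0.12). The RNA ligase gene Rtcb and its cofactor genes Ddx1, Fam98b, Rtraf and Zbtb8os, named after their values were seen, were not called (log2 0.05, 0.14, -0.09, -0.08 and -0.19). The other falls, Hspa5 and Bfar, were named after their values were seen (log2 -0.33 and -0.34), and Hspa5 kept its call in 1 of the 6 fits without 1 library and lost it with upper-quartile factors (log2 -0.27, edgeR adjusted p = 0.0926). With total counts 6 of the 17 were higher and 2 lower, where 3859 of 13986 tested genes were higher and 538 lower. Under that scaling Rtcb, Ddx1, Traf2, Ptpn1 and Bak1 joined Bax, while Hspa5 (log2 -0.11, edgeR adjusted p = 0.463) and Bfar (log2 -0.13, edgeR adjusted p = 0.181) were no longer called.

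For PERK, the list of 13 held partners, eIF2-alpha kinases and phosphatase subunits, the eIF2-alpha gene Eif2s1 and the eIF2B subunit genes Eif2b1 to Eif2b5. Of these 3 fell and none rose (median log2 -0.06), where 9.70% of all tested genes were called lower and 10.3% higher. Ppp1r15b, the constitutive subunit that directs eIF2-alpha dephosphorylation, was 74.2 ± 6.03 CPM in DKO and 161 ± 3.79 CPM in SKO (log2 -1.12 ± 0.08, edgeR adjusted p = 2.68e-05). Dnajc3, an inhibitor of PERK, was 160.3 ± 5.11 CPM in DKO and 269.7 ± 19.2 CPM in SKO (log2 -0.75 ± 0.08). Eif2ak1, the heme-regulated eIF2-alpha kinase, was 53.3 ± 0.890 CPM in DKO and 69.0 ± 8.998 CPM in SKO (log2 -0.37 ± 0.09, edgeR adjusted p = 0.0208), which was no longer called with total counts or when SKO replicate 2, SKO replicate 3 or DKO replicate 3 was left out (edgeR adjusted p 0.0581 to 0.0868). With total counts 5 of the 13 were higher and 2 lower, where 3859 of 13986 tested genes were higher and 538 lower. The 5 higher genes, named after their values were seen, were Eif2s1, Eif2b2, Eif2b3, Eif2b4 and Eif2b5.

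For ATF6, 5 of 14 retention and trafficking genes fell and 1 rose (median log2 -0.27), where 9.70% of all tested genes were called lower and 10.3% higher. The coat subunits Sec23b, at 32.0 ± 0.577 CPM in DKO and 51.9 ± 4.76 CPM in SKO, and Sec24d, at 74.6 ± 5.80 CPM in DKO and 112 ± 7.15 CPM in SKO, fell by 0.70 and 0.59 on the log2 scale. The cargo receptor gene Tmed2 fell by 0.43 and lost its call with total counts (edgeR adjusted p = 0.133). The remaining calls, named after their values were seen, were Hspa5 and Nucb1, which were lower, and Txndc12, which was higher (log2 0.41). Nucb1 lost its call with total counts (log2 -0.09, edgeR adjusted p = 0.434) and when SKO replicate 2, SKO replicate 3 or DKO replicate 3 was left out (edgeR adjusted p 0.0552 to 0.0904). With total counts 3 of this list were called, 1 higher and 2 lower, where 3859 of 13986 tested genes were higher and 538 lower. Of 9 other substrates and partners of the site-1 and site-2 proteases, 3 fell and 1 rose (median log2 -0.17). Srebf1, the gene of the lipogenic factor SREBP-1, was 87.8 ± 3.59 CPM in DKO and 244 ± 31.0 CPM in SKO (log2 -1.47 ± 0.10), and Insig1, which retains SREBPs in the ER, was 81.9 ± 3.77 CPM in DKO and 173 ± 23.2 CPM in SKO (log2 -1.08 ± 0.10). Atp6ap2, a site-1 protease substrate, was 57.9 ± 1.04 CPM in DKO and 44.5 ± 1.63 CPM in SKO (log2 0.38 ± 0.06). Scap, named after its values were seen, was also lower (log2 -0.27), and kept its call in 1 of the 6 fits without 1 library. Scap also lost its call with upper-quartile factors (edgeR adjusted p = 0.0789) and with total counts (log2 -0.05, edgeR adjusted p = 0.595).

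Known targets of the factors were counted in the same way, against 9.70% of all tested genes called lower and 10.3% higher. Genes were placed under a factor from general knowledge, and which factor moved them was not tested. Dnajb9, Pdia6, Syvn1 and Sel1l are also in the IRE1-alpha list, Sec24d and Calr in the ATF6 trafficking list, and Hspa5 in both. Calls of such genes were therefore counted more than once. Of 20 known XBP1 targets, 17 fell and none rose (median log2 -0.61), and of 11 known ATF6 targets, 5 fell and none rose (median log2 -0.25). For XBP1, Erp44 was 31.1 ± 3.16 CPM in DKO and 80.4 ± 6.79 CPM in SKO (log2 -1.37 ± 0.09), P4hb was 660.0 ± 44.5 CPM in DKO and 1516 ± 79.7 CPM in SKO (log2 -1.20 ± 0.10), and Dnajb9, also in the IRE1-alpha list, is given above. Pdia3, Sec31a and Syvn1 were not called (log2 -0.23, -0.17 and -0.24), and were named after their values were seen. For ATF6, Hyou1, an ER chaperone, was 78.7 ± 5.91 CPM in DKO and 161 ± 18.7 CPM in SKO (log2 -1.03 ± 0.10), and Creld2 was 20.7 ± 0.199 CPM in DKO and 41.8 ± 7.83 CPM in SKO (log2 -1.01 ± 0.12). Sdf2l1 was 10.3 ± 0.341 CPM in DKO and 16.4 ± 3.22 CPM in SKO (log2 -0.66 ± 0.14) and lost its call with total counts (edgeR adjusted p = 0.0536). Under that scaling 2 of the 11 ATF6 targets were lower, where 538 of 13986 tested genes were lower. Hspa5 and Manf, named after their values were seen, were the other falls. The largest change in this list went upward, in Derl3, which was also named after its values were seen. It had 4.87, 5.71 and 11.9 CPM in DKO libraries, without overlap with 1.78, 1.48 and 4.73 CPM in SKO libraries. At log2 1.47 ± 0.55 it missed the threshold (edgeR adjusted p = 0.120). Leaving out SKO replicate 3 made it a higher call (log2 2.19, edgeR adjusted p = 0.0302).

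Among 11 known liver targets of CREB3L3, 2 rose and 3 fell (median log2 0.13), where 10.3% of all tested genes were called higher and 9.70% lower. Fgf21, a hormone gene activated by CREBH and other factors, had 76, 52 and 50 reads in DKO libraries and 15, 27 and 18 in SKO libraries, and was 2.77 ± 0.362 CPM in DKO and 1.149 ± 0.289 CPM in SKO (log2 1.26 ± 0.25, edgeR adjusted p = 0.00797). Apoa1 was 5481 ± 541 CPM in DKO and 9385 ± 2335 CPM in SKO (log2 -0.78 ± 0.18, edgeR adjusted p = 0.0165) and Hamp, the hepcidin gene, was 420.1 ± 9.27 CPM in DKO and 774 ± 224 CPM in SKO (log2 -0.88 ± 0.20, edgeR adjusted p = 0.0181). Apoa1, also counted among the hepatocyte markers, lost its call when SKO replicate 2 or 3 was left out (edgeR adjusted p = 0.0749 and 0.0535). Hamp lost it when SKO replicate 2, DKO replicate 1 or DKO replicate 3 was left out (edgeR adjusted p 0.0572 to 0.0899). Apoa5 was also lower and Apcs higher, named after their values were seen (log2 -0.51 and 0.85), and they kept their calls in 1 and 2 of the 6 fits without 1 library. Apoa5 also lost its call with upper-quartile factors (edgeR adjusted p = 0.05275) and with total counts (edgeR adjusted p = 0.108). The list held 1 call when SKO replicate 2 was left out, 3 for SKO replicate 3, 3 for DKO replicate 1 and 2 for DKO replicate 3, in place of 5. Among the 6 genes not called, Apoa4, named after its values were seen, came nearest (log2 0.57 ± 0.17, edgeR adjusted p = 0.0517, no overlap). Apoa4 was called higher in 2 of the 6 fits without 1 library. It was also called with upper-quartile factors (edgeR adjusted p = 0.0400), total counts (edgeR adjusted p = 0.0217), DESeq2, no filter and no robust estimation.

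The pattern of Xbp1 over the 6 libraries was most closely followed by Selenos, Rrbp1 and the long non-coding gene Gm8883, with Pearson's r of 0.996, 0.996 and 0.994 for log2(CPM + 1) among 8214 genes that averaged 10 CPM or more. The 6 points span both groups, so each r includes the difference between them and is given as a description. Selenos had 49.0, 45.0 and 44.1 CPM in DKO libraries and 71.7, 75.5 and 78.3 CPM in SKO libraries. Rrbp1 had 201, 184 and 178 CPM in DKO libraries and 266, 290.4 and 293 CPM in SKO libraries. In these 2 genes, as in Xbp1, DKO replicate 1 was the highest DKO library and SKO replicate 1 the lowest SKO library.

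Upstream sequences of Xbp1 and Creb3l3 are shown to let a reader see which ER stress elements their proximal sequence holds. They are the 250 bases before the start annotated by RefSeq on GRCm38.p6, 5′ to 3′ on the gene's strand, and neither holds ACGTG on either strand, which capitals would mark (Xbp1 at chr11:5520391-5520640, plus strand; Creb3l3 at chr10:81098873-81099122, minus strand, of which 2 bases lie in a GENCODE M21 exon).
Xbp1 upstream: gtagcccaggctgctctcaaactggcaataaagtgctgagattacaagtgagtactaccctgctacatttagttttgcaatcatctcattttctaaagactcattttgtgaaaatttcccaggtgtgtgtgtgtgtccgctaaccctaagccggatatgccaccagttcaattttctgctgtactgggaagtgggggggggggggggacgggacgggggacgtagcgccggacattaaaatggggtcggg
Creb3l3 upstream: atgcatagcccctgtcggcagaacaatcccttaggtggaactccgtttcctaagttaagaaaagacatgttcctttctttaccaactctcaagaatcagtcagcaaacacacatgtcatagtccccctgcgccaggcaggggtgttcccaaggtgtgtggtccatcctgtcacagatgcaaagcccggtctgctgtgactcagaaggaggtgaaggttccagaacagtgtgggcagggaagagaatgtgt
Windows of 300 bases, from 250 before to 50 after a start, were found for 9 of the 10 genes (10 windows, with 2 starts for Creb3l3), and Atf6 had none. The ER stress element (ERSE), the UPR element core TGACGTGG and the cyclic AMP element TGACGTCA were searched on both strands and matched none of the 10 windows, against 0.119%, 0.676% and 1.79% of all 32851 windows. ACGTG, a shorter string contained in the UPR element core, was in 3 of the 10 windows and in 19.6% of all windows. In Creb3 it lay 106 to 102 bases before the RefSeq start, but all 250 bases before that start lie inside the first exon of Creb3 in GENCODE M21, whose gene start is the one given above, so this stretch is not shown and is upstream by RefSeq only. ACGTG also lay in Atf6b 47 to 43 bases before its start, overlapping its own reverse complement, and in Creb3l3 at the internal start that is not shown above. No ACGTG was in the Xbp1 window, and absence of these letters says only that they are not in this stretch.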

How the data were processed

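Liver RNA of 3 DKO and 3 SKO samples was sequenced after Trizol extraction and standard Illumina library preparation, per the labels' protocols. The authors deposited raw read counts, whole numbers for 54232 Ensembl genes, 1 table per library. Among the tools listed in the submitters' processing notes are STAR, DESeq2, cutadapt 1.13 and HTSeq 0.6.1p1, with mm10 as the build. Their settings, the annotation release and strand use were not given in the sources used here. Reads shared by overlapping genes may be dropped in such counting. Symbols and coordinates came from GENCODE M21 on the same assembly (54165 identifiers matched).

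Groups followed the genotype label; replicate numbers follow accession order and pair nothing. Counts were filtered with filterByExpr and tested with edgeR 4.0.16 (R 4.3.3; TMM, robust glmQLFit and glmQLFTest, DKO against SKO), with Benjamini-Hochberg adjustment over 13986 genes and a threshold of 0.05. Each SE is the log2 fold change divided by the square root of F. Between libraries of 1 group, chi-square divided by its degrees of freedom was 10.2 to 29.5, so they differed beyond sampling noise. At these depths 3 counts, the limit a count of 0 allows, equal 0.126 to 0.191 CPM, for counting error only.

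The 10 genes and all lists were chosen with earlier results of these data known. Named are all 10, the relatives, Nr1h4, up to 3 called genes with the smallest p per list, and the 3 genes most correlated with Xbp1. Alternatives were DESeq2 1.42.0, limma-voom (limma 3.58.1), upper-quartile and total-count scaling, no filter, no robust estimation, and leaving out each of the 6 libraries.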

Additional observations from a re-analysis of the deposited data

How the results depend on the processing

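Of the 10 genes, 3 were called as reported, 5 with upper-quartile factors and 2 to 4 in the 6 fits without 1 library. Over all genes, 2803 were called as reported, 4397 with total counts (87.8% of them higher, against 51.6% with TMM and 65.3% with upper-quartile factors) and 1419 to 2739 without 1 library, the lowest without SKO replicate 2, and 1784 and 1831 without SKO replicate 3 and DKO replicate 3. Ern1 was called higher with upper-quartile factors (log2 0.32), total counts (0.48) and no filter (0.26), and ranged from 0.21 to 0.35 without 1 library. Mbtps2 was called higher with upper-quartile factors (0.37) and total counts (0.53), and ranged from 0.25 to 0.40. Creb3 and Creb3l3 lost their calls with total counts (-0.12 and -0.11), and Creb3l3 ranged from -0.34 to -0.31 without 1 library. Signs turned, never with a call, for Atf6 with total counts (0.11), Mbtps1 without 1 library (-0.053 to 0.086) and Nr1h4 with upper-quartile factors (0.044), with total counts (0.20) and without 1 library (-0.066 to 0.026). With total counts the lists of IRE1-alpha, PERK, ATF6 trafficking and ATF6 target genes held 8, 7, 3 and 2 calls in place of 5, 3, 6 and 5, with 6, 5, 1 and 0 of them higher in place of 1, 0, 1 and 0. The list of relatives held 0 calls with limma-voom and 0 to 1 without 1 library, and the CREB3L3 targets 1 to 6. Relative to the median of all genes, the 10 log2 fold changes moved by at most 0.008 between the 3 scalings. A change of scaling shifts all genes nearly alike, so this was set in advance and is no check on the calls. For the other changes the cause was not tested. DESeq2, limma-voom and the fit without robust estimation changed no call among the 10 genes. The Ern1 to Xbp1 ratio moved between 1.86 and 2.14 on the log2 scale without 1 library. No paired analysis was possible because the labels give no replicate numbers that tie DKO to SKO libraries. With 3 libraries per group, SEs of 0.07 to 0.14 on the log2 scale limit what can be detected for the 10 genes.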

Other observations

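Eif2ak3 and Creb3l2 ranked the 6 libraries in the same order, a feature noticed after their values were seen and not tested. In both, SKO replicate 2 was highest (22.1 CPM for Eif2ak3 and 36.0 CPM for Creb3l2) and DKO replicate 2 lowest (14.99 and 23.0 CPM). DKO replicate 1 was the highest DKO library for Xbp1, Eif2ak3, Creb3l2, Creb3l3 and Creb3l1, and the lowest for Atf6, Creb3 and Mbtps2. It was also the DKO library with the highest summed stellate, macrophage and cholangiocyte markers (942, 1027 and 221 CPM), and the part of these cells in the values of these genes was not tested.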
